A study of Mus musculus with 63 samples.

Results

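The miR-199 and miR-214 microRNAs (miRNAs) were followed in mouse kidney across 4 sorted cell types and 4 conditions of obstructive injury and repair. The members are the mature arms mmu-miR-199a-5p, mmu-miR-199a-3p, mmu-miR-199b-5p, mmu-miR-199b-3p, mmu-miR-214-5p and mmu-miR-214-3p (written below without the species prefix), taken by name from a table of small RNA counts. These 6 names occupied 8 loci, of 2110 loci and 1966 names in the whole table, because both arms of miR-199a are listed on chromosome 1 and again on chromosome 9. Kidneys came from male C57BL/6 mice aged 8 to 12 weeks that underwent sham surgery, unilateral ureteric obstruction for 2 days (UUO-2) or 7 days (UUO-7), or 7 days of obstruction followed by reimplantation of the ureter and 14 days of recovery (R-UUO). No genetic alteration is named for any group. Digested cortex of each animal was sorted into 4 gates: CD45-CD31+ endothelial cells (ECs), CD45+ macrophages with high F4/80 (Macs), proximal tubule (PT) cells that bound the lectin LTL and lacked CD45 and CD31, and stromal cells that lacked both antigens and carried PDGFR-β. The last gate holds fibroblasts and pericytes. Each of the 16 groups held 4 libraries from 4 mice, except PDGFR-β+ cells at UUO-7 with 3, since the study left out 1 library as an outlier before deposit. The 4 mice of a group were those of a larger set whose tubular injury marker lay closest to the group mean, so the spread between them may be narrower than among all mice.

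A miRNA is cut from a hairpin transcript whose paired arms give a 5p and a 3p mature strand. One strand is loaded into an Argonaute protein and guides it to messenger RNAs, chiefly through bases 2 to 8, the seed. In mammals miR-199a and miR-214 are carried by a shared non-coding transcript, Dnm3os, which is antisense to the dynamin gene Dnm3 and is known for its activity in mesenchymal tissues. Both miRNAs are commonly linked with fibroblast activation in several organs.

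The mature sequences are shown because the identity of 2 of them decides which loci can be told apart. Each is written 5′ to 3′ with the seed in capitals, from RefSeq on GRCm38.p6, where 5 of the 6 names were matched. The mature sequence of miR-199b-5p was not in that table and is not printed.
miR-199a-5p: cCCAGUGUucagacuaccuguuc
miR-199a-3p: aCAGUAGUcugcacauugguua
miR-199b-3p: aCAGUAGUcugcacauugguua
miR-214-5p: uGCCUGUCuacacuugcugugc
miR-214-3p: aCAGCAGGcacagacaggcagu
The 3p arms of miR-199a and miR-199b were identical over all 22 bases, so a read of that sequence cannot be assigned to one gene. Among 1679 mature mouse entries, the seed CAGCAGG of miR-214-3p was shared by 1 other, miR-761. The seeds CCAGUGU of miR-199a-5p and GCCUGUC of miR-214-5p were held by no other entry in the table, which lacks miR-199b-5p.

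The hairpins show that both miR-199a genes give the same pair of arms, here in capitals, within different loops and flanks.
Mir199a-2: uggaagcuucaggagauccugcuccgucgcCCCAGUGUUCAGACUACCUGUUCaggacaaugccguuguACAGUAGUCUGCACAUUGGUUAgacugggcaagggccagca
Mir199a-1: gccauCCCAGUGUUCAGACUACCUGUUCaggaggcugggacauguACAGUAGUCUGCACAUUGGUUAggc
Mir214: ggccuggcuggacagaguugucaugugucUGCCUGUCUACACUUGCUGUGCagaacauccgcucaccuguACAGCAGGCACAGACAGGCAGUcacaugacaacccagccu
Mir199a-2 lies at chr1:162217814-162217923 and Mir214 at chr1:162223368-162223477 (GRCm38, plus strand). Both fall in an exon of Dnm3os and, on the opposite strand, in an intron of Dnm3. The gap between miR-199a-3p and miR-214-5p there was 5492 bases. Mir199a-1 lies at chr9:21496495-21496564 on the minus strand, antisense within an intron of Dnm2. Mir199b lies at chr2:32318460-32318569 on the plus strand, antisense within an intron of Dnm1. The only other locus of the table within 10000 bases of a member was miR-3154, at chr2:32318317-32318338.

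The libraries held 616565 to 10819385 counts each, with a median of 7577134.5 for ECs, 4263852 for PDGFR-β+ cells, 3018038.5 for Macs and 1043053.5 for PT cells. Levels are given as CPM, a count scaled to a fixed library total, scaled by trimmed mean of M values (TMM) over all 63 libraries, and a count of 3 corresponded to 0.277 to 4.87 CPM before that scaling. Defining markers followed the sorts. miR-143-3p, abundant in mural and stromal cells, had a median of 197468 CPM in PDGFR-β+ cells and 4349 to 16026 in the other sorts. Endothelial miR-126a-5p had medians of 121637 CPM in ECs and 1246 in PDGFR-β+ cells, and myeloid miR-223-3p had 1670 in Macs and 19.8 in PDGFR-β+ cells. The tubular marker miR-192-5p had its highest median, 57045 CPM, in PT cells, but miR-204-5p, also chosen as a tubular marker, was higher in ECs (1191) than in PT cells (807).

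All 8 member loci were called higher in PDGFR-β+ cells than in each other sort, in every condition. Filtered for low counts within a sort, 5 of them passed in ECs, 5 in Macs and 3 in PT cells. The others were tested through a filter over all 63 libraries, with their highest counts in PDGFR-β+ cells, so that filter favoured their call. Loci of one mature sequence are not separate measurements. In sham kidneys miR-199a-5p averaged 541 ± 33.9 CPM (SD, n = 4) in PDGFR-β+ cells, 44.2 ± 9.80 in ECs, 12.9 ± 1.84 in Macs and 9.08 ± 3.24 in PT cells. The Macs and PT cell values did not separate beyond their spread, whereas ECs lay above both. miR-199a-3p followed the same order at its top, with 3594 ± 353 CPM in PDGFR-β+ cells and 403 ± 87.2 in ECs. It reached 98.4 ± 17.7 in Macs and 108 ± 9.32 in PT cells, again overlapping. miR-214-3p was lower throughout, at 67.4 ± 6.76 CPM in PDGFR-β+ cells, 10.5 ± 3.32 in ECs, 2.51 ± 0.754 in Macs and 2.46 ± 1.56 in PT cells. Mature miRNAs are of nearly equal length (22 or 23 bases), so CPM was compared between members without a length correction. Sequences can differ in how well they are captured, however, and levels of different members carry that limit.

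**Figure D1:**
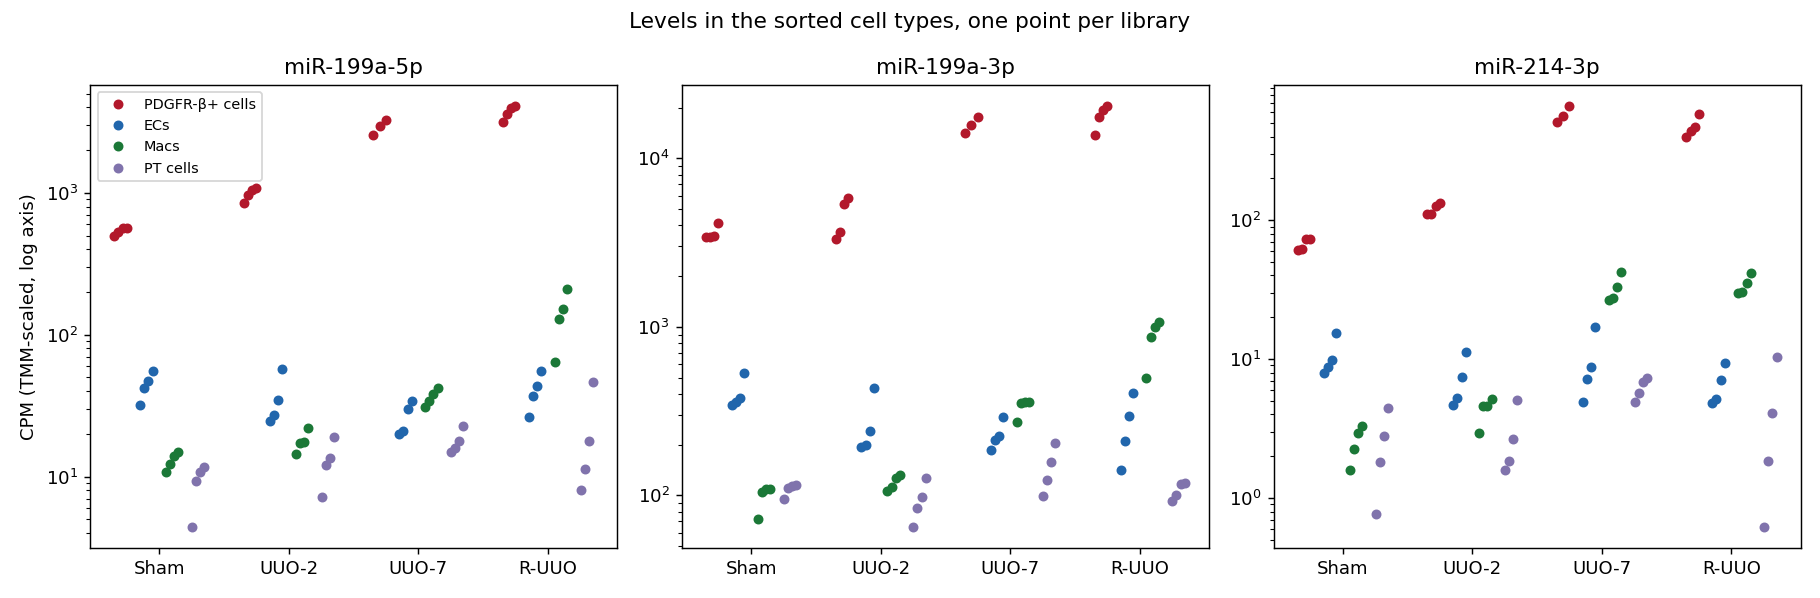
CPM on a log axis for miR-199a-5p, miR-199a-3p and miR-214-3p (chromosome 1 loci) in each library, by condition (x axis) and cell type (colour). PDGFR-β+ libraries lie above every library of the other sorts within each condition, and Macs rise from sham to R-UUO.

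In the sham contrast against ECs, all 8 loci were called higher, that is with a false discovery rate (FDR) under 0.05 and over 1.5-fold in edgeR's quasi-likelihood test, where 15.6% of the 671 loci tested were called higher. Unless chromosome 9 is named, values of miR-199a-5p and miR-199a-3p are those of the chromosome 1 locus. miR-199a-5p differed by 3.61 ± 0.313 (log2, SE). Against Macs in sham all 8 were called, beside a background of 29.7%, and miR-199a-5p differed by 5.39 ± 0.344. Against PT cells all 8 were called, beside 25.6%, with 5.87 ± 0.375 for miR-199a-5p. The background for the EC, Mac and PT cell contrasts was 15.4%, 32.3% and 23.7% at UUO-2, 27.6%, 35% and 28.9% at UUO-7, and 20.1%, 30.7% and 26.5% at R-UUO, and all 8 loci were called higher in each of those 9 contrasts. The chromosome 9 locus of miR-199a-5p had the highest adjusted p in the sham contrasts, with 1 to 7 counts in sham PDGFR-β+ libraries. Against Macs in sham it differed by 2.36 ± 0.953 (adjusted p = 0.0292), with overlapping libraries. It had no count in sham PT libraries, where a floor of 3 counts over the group makes it at least 1.71-fold higher in PDGFR-β+ cells. Only 7 of the 8 loci were called with library size scaling against Macs in sham and against PT cells in sham and at UUO-2. The count was also 7 with no filter in both sham contrasts, with DESeq2 against PT cells in sham, and without sham mouse 1, 3 or 4 against Macs, sham mouse 1 or 4 against PT cells, or UUO-2 mouse 1, 2 or 4 against PT cells. The difference from ECs was larger at UUO-7, where it was 6.80 ± 0.369 for miR-199a-5p and 5.96 ± 0.377 for miR-214-3p. From Macs, miR-214-3p differed by 3.77 ± 0.331 at R-UUO, the lowest estimate among the 5 leading members in the Mac contrasts. With library size scaling the share of higher loci among those called against Macs went from 48.3% to 29.0% in sham, and against PT cells from 47.8% to 27.3%, but the 540 alternative values of the leading members all kept the call, from 2.43 to 11.94.

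Some groups outside PDGFR-β+ cells held no count of a scarce member. miR-199b-5p had no count in any of the 4 UUO-2 EC libraries. A floor of 3 counts over that group is 0.244 CPM, so its mean of 27.2 CPM in PDGFR-β+ cells was at least 112-fold higher. No count of miR-214-5p was found in the 4 sham PT libraries, against 32.7 CPM in PDGFR-β+ cells, at least 47.6-fold higher with a floor of 0.685 CPM. It had 12 to 35 counts in sham EC libraries and 6 to 96 in R-UUO Mac libraries. Over all EC, Mac and PT libraries the highest count of miR-199b-5p was 90, in an R-UUO Mac library. These floors cover counting error only.

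With injury, every member rose in PDGFR-β+ cells. The arms of miR-214, miR-199a-5p and miR-199b-5p had risen after 2 days, and all 8 loci after 7 days. miR-199a-5p, the leading 5p arm, measured 530, 569, 567 and 498 CPM in the 4 sham libraries. At UUO-2 it measured 959, 1085, 844 and 1045, and at UUO-7 2980, 3285 and 2552. After reversal it measured 4095, 3603, 3957 and 3171. Sham, UUO-2 and UUO-7 libraries did not overlap with each other, while R-UUO libraries overlapped those of UUO-7. The change from sham was 0.90 ± 0.126 (log2, SE) at UUO-2, adjusted p = 0.000208, and 2.39 ± 0.137 at UUO-7, adjusted p = 2.18e-09.

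**Figure D2:**
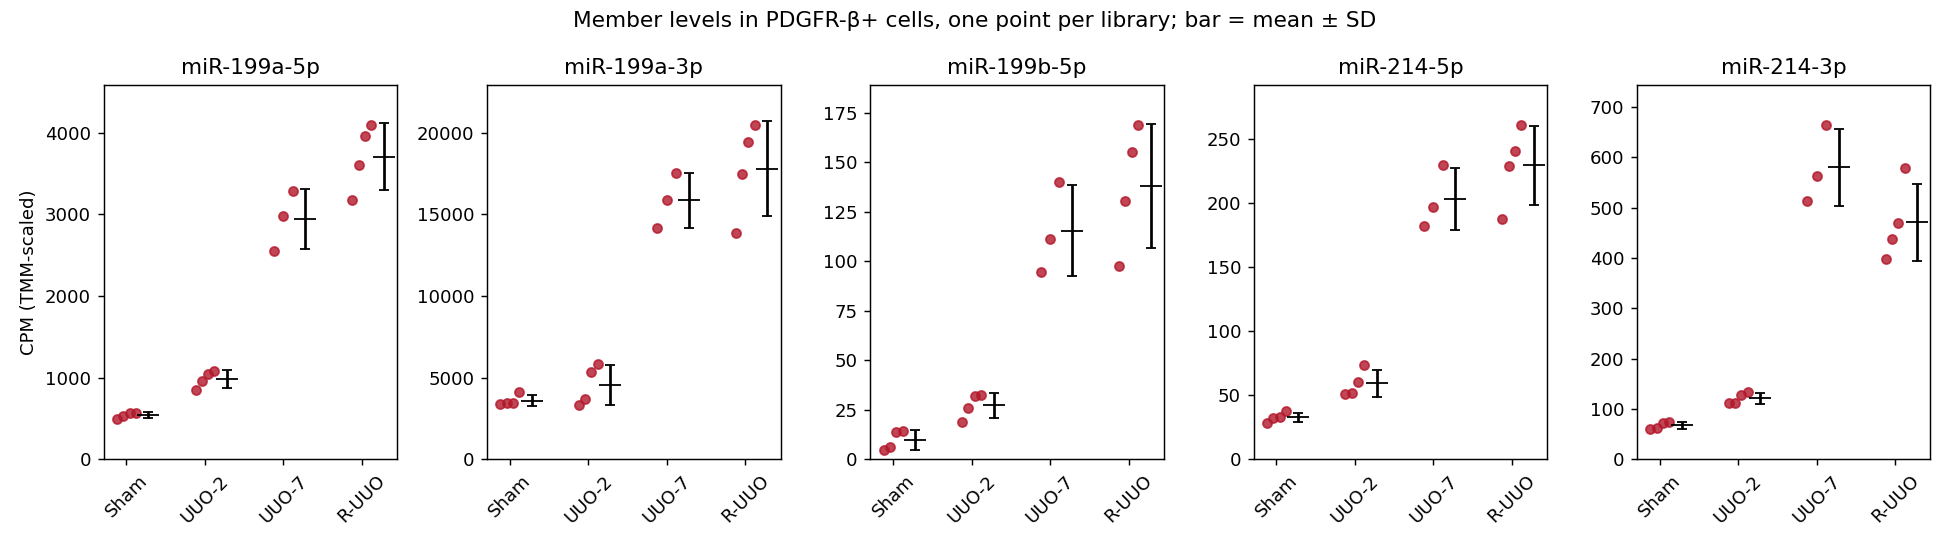
CPM of the 5 leading member loci in each PDGFR-β+ library by condition, with mean ± SD beside the points. Sham libraries of miR-199a-5p sit between 498 and 569 CPM and those of UUO-7 between 2552 and 3285, and those of R-UUO between 3171 and 4095.

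miR-214-3p, the more abundant arm of Mir214, followed a similar course up to UUO-7. It measured 72.8, 60.8, 73.6 and 62.2 CPM in sham, and 112, 133, 127 and 111 at UUO-2. At UUO-7 it measured 563, 664 and 513, and at R-UUO 399, 578, 437 and 469. All UUO-2 libraries were above all sham libraries and all UUO-7 libraries above all UUO-2 libraries, whereas only 1 of the 4 R-UUO libraries reached into the UUO-7 range. Its log2 change was 0.89 ± 0.143 at UUO-2 and 3.06 ± 0.158 at UUO-7 (adjusted p = 0.000850 and 5.91e-10).

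miR-199b-5p came from a gene on another chromosome and was the scarcest of the leading members. Its 4 sham libraries gave 14.0, 4.43, 13.7 and 6.14 CPM, from 14 to 73 counts. It rose to 25.7, 32.4, 18.7 and 32.0 CPM at UUO-2 and to 140, 94.6 and 111 at UUO-7. R-UUO libraries gave 169, 130, 155 and 97.6 CPM. The log2 change was 1.57 ± 0.314 at UUO-2 (adjusted p = 0.00407) and 3.57 ± 0.339 at UUO-7 (adjusted p = 6.63e-07), the largest point estimate among the 8 loci at both times.

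miR-199a-3p, the most abundant member, was not called at UUO-2. Its sham libraries gave 3423, 3438, 4122 and 3391 CPM. Those of UUO-2 gave 3313, 5342, 5822 and 3670, with 2 of the 4 inside the sham range or below it. The log2 change there was 0.38 ± 0.168, adjusted p = 0.180, which did not pass. At UUO-7 it measured 15868, 17535 and 14140 CPM and at R-UUO 13827, 20470, 17494 and 19415, with no overlap with sham, and the UUO-7 change was 2.09 ± 0.182 (adjusted p = 3.33e-07). miR-214-5p, the rarer arm of Mir214, rose from 28.5 to 37.2 CPM in sham to 50.6 to 73.9 at UUO-2 and 182 to 230 at UUO-7, with 0.91 ± 0.174 at UUO-2 (adjusted p = 0.00367).

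Counted over loci, 4 of the 8 were called higher at UUO-2 (miR-199a-5p on chromosome 1, miR-199b-5p and both arms of miR-214), beside a background of 5.66% of 477 loci. The other 4, miR-199b-3p, miR-199a-3p on both chromosomes and miR-199a-5p on chromosome 9, had log2 changes of 0.22 to 0.99. Loci of one mature sequence are not separate measurements. Of the leading loci, 1 for each sequence, only miR-199a-3p was not called at UUO-2. The 4 called loci were also those whose UUO-2 libraries did not overlap with sham, which 13% of loci shared. In a single fit over all 63 libraries only 2 of the 8 were called at UUO-2, and both arms of miR-214 were not (adjusted p = 0.0630 for miR-214-3p and 0.0835 for miR-214-5p). With no filter on low counts miR-214-5p was not called either (0.81, adjusted p = 0.0572). At UUO-7 against sham all 8 were called higher, with a median log2 change of 2.37, against a background of 34% and a median over all loci of 0.50. None of the 8 overlapped with sham, where 58.9% of loci did not. All 8 were called at UUO-7 against UUO-2 as well (background 23.5%), by 1.36 to 2.17, though 7 were with DESeq2, the replicate block, no filter, the compared groups alone or the fit over 63 libraries, and without any 1 of UUO-2 replicates 1, 2 and 3 or UUO-7 replicates 2, 4 and 5. All 8 were called higher at R-UUO against sham, by 2.21 to 3.82, where 27.9% of loci were. In these contrasts miR-199a-5p on chromosome 9 rested on 1 to 7 counts in sham libraries, 4 to 13 at UUO-2 and 10 to 30 at UUO-7. It passed the low count filter through its UUO-7 and R-UUO libraries, so that filter favoured its calls.

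**Figure D3:**
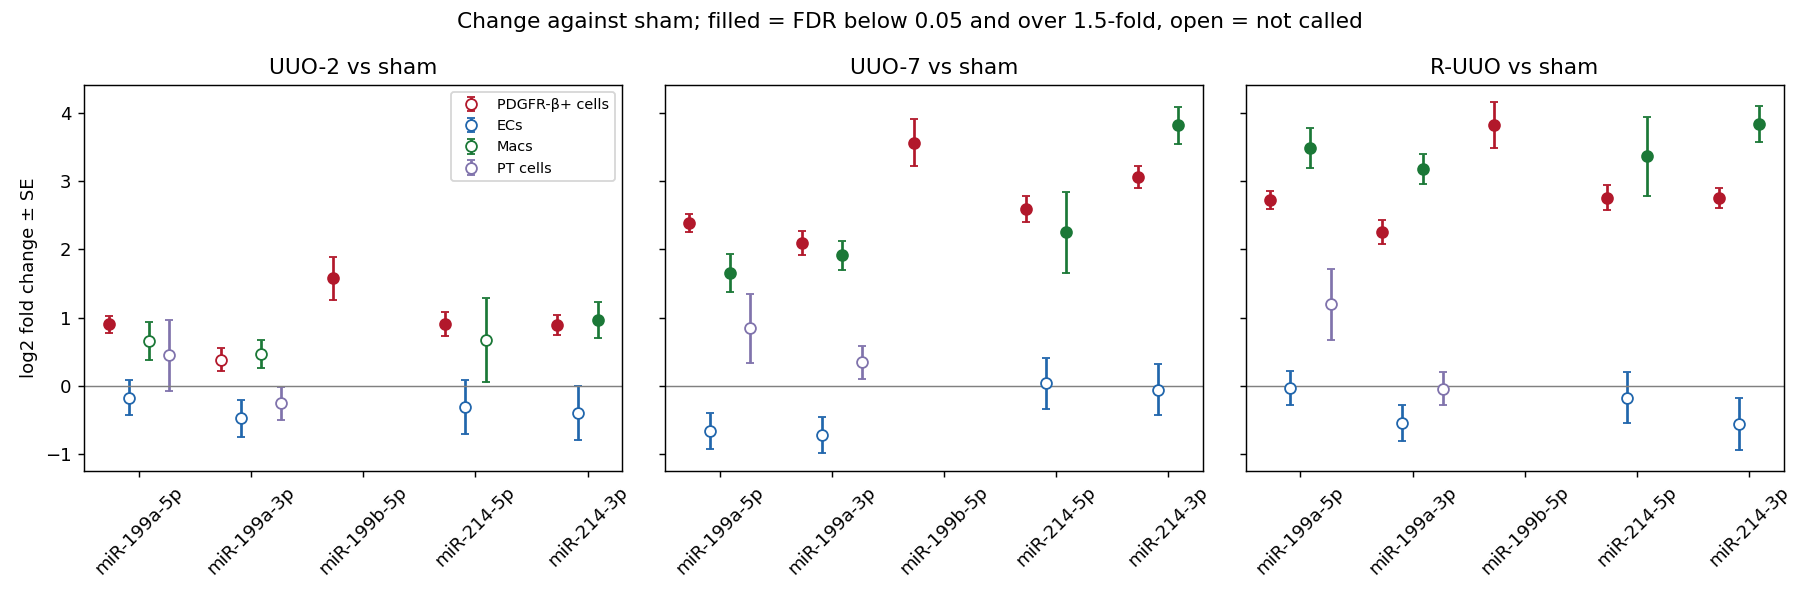
Log2 fold change ± SE against sham for the 5 leading loci that passed the low count filter in each cell type. Filled points passed FDR and fold thresholds. PDGFR-β+ cells and Macs are raised at UUO-7 and R-UUO, while no point of ECs or PT cells is filled.

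Scaling bears on the size of these changes. Without TMM factors the median log2 change of all loci in PDGFR-β+ cells at UUO-7 against sham moved by 0.52, to 1.02, and of the loci called 86.3% were higher instead of 70.4%. The 5 leading members then changed by 2.60 to 4.05, so they stood above that shifted median too. R-UUO against sham moved by 0.29 (83.6% of the called loci higher instead of 66.8%), and UUO-7 against UUO-2 by 0.55 (89.7% instead of 69.6%). For R-UUO against UUO-7 it moved by -0.23 (41.7% instead of 78.9%). The summed members made up 0.357% ± 0.0602 of all counts in sham PDGFR-β+ libraries, 0.479% ± 0.130 for UUO-2, 2.25% ± 0.189 for UUO-7 and 2.16% ± 0.304 for R-UUO (SD). In rank of mean CPM among the 2110 loci, miR-199a-3p went from 34 in sham to 14 at UUO-7 and R-UUO, and miR-199a-5p from 79 to 38 and then 35. In sorted bulk samples a change in the mix of cells within the gate and a change of level per cell cannot be told apart. The summed mural markers miR-143-3p and miR-145a-5p fell in the same libraries, from 321703 to 394273 CPM in sham to 125957 to 152628 at UUO-7 and 74151 to 134848 at R-UUO, and their part in the members' rise was not tested. The myeloid marker sum in these libraries was 53.0 to 171 CPM in sham, 283 to 329 at UUO-2, 273 to 698 at UUO-7 and 121 to 205 at R-UUO, so UUO-2 and UUO-7 lay above sham without overlap, and its part was not tested either.

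After reversal of obstruction none of the 8 loci was called lower or higher than at UUO-7, where edgeR called 3.14% of loci higher and 0.839% lower. DESeq2 also called 0 of the 8, and 1 locus had an unadjusted p under 0.05. The log2 differences of R-UUO from UUO-7 were 0.33 ± 0.136 for miR-199a-5p (adjusted p = 0.209), 0.16 ± 0.181 for miR-199a-3p, 0.17 ± 0.183 for miR-214-5p, 0.26 ± 0.314 for miR-199b-5p and -0.31 ± 0.151 for miR-214-3p (adjusted p = 0.294). Only miR-214-3p among the 8 had a value below 0. With library size scaling the values of miR-199a-3p and miR-214-5p turned to -0.069 and -0.062, still without passing the test. Leaving out replicate 1 of R-UUO raised the count over all loci from 19 to 75, and leaving out replicate 5 of UUO-7 lowered it to 3, while no leading member was called in either case.

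Macs carried lower levels, but the members rose there too. miR-199a-5p measured 10.7, 14.1, 14.8 and 12.2 CPM in sham Macs and 33.8, 38.2, 42.2 and 31.1 at UUO-7. It then reached 209, 152, 129 and 64.3 CPM at R-UUO, every library above every UUO-7 library. miR-214-3p measured 2.93, 3.29, 2.24 and 1.59 CPM in sham, from 9 to 27 counts. It measured 26.6, 27.6, 33.0 and 42.2 at UUO-7 and 41.8, 30.5, 35.1 and 30.2 at R-UUO, so its UUO-7 and R-UUO libraries overlapped. Thus miR-199a-5p kept rising after reversal, by 1.84 ± 0.274 (log2, SE, adjusted p = 0.000256), whereas miR-214-3p differed by 0.02 ± 0.222 (adjusted p = 0.963). Whether these members differed from each other in that change was not tested.

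In Macs 5 member loci passed the low count filter, and miR-199b-5p and both chromosome 9 loci did not. All 5 were called higher at UUO-7 against sham (background 26.3%), from 1.65 ± 0.283 for miR-199a-5p to 3.82 ± 0.265 for miR-214-3p. All 5 were called at UUO-7 against UUO-2 (background 16.2%) and at R-UUO against sham (background 21.4%), the latter by 3.06 to 3.83. In Macs miR-214-5p held 0 to 12 counts in sham libraries, 5 to 14 at UUO-2 and 9 to 26 at UUO-7. It passed the low count filter through the UUO-7 and R-UUO groups, so that filter favoured its calls in these contrasts. At R-UUO against UUO-7, 3 of the 5 were called (background 12.7%), namely miR-199a-5p, miR-199a-3p (1.27 ± 0.203) and miR-199b-3p (1.25 ± 0.205). The 3p loci share one sequence and are not separate measurements. Only miR-214-3p was called at UUO-2 (background 18.4%), by 0.96 ± 0.267 with adjusted p = 0.0103. That early call was lost without replicate 1, 2 or 4 of UUO-2 or replicate 3 or 4 of sham, with log2 changes of 0.64 to 0.84. It was also lost with no filter (adjusted p = 0.0943), in the fit over 63 libraries (0.138) and with the compared groups alone (0.0599), where miR-199a-5p was called instead (0.61, adjusted p = 0.0386). Library size scaling called 4 loci there. The call of miR-214-5p at UUO-7 against UUO-2, 1.58 ± 0.555, was lost without any 1 of the 4 UUO-2 libraries or without replicate 3 or 4 of UUO-7, and that of miR-199a-5p without replicate 4 of UUO-2.

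Values of stromal markers in Macs stood beside these changes as follows. The sum of miR-143-3p and miR-145a-5p was 1904 to 4863 CPM in sham Macs and 2719 to 4188 at UUO-7, an overlapping range, and 5747 to 8403 at R-UUO, above every sham and UUO-7 library. The myeloid marker sum was 34894 to 41968 CPM in sham, 17978 to 21212 for UUO-7 and 14705 to 27648 for R-UUO. Library size scaling changed the share of higher loci among those called in Macs from 66.7% to 80.6% at UUO-2 against sham and from 63.7% to 34.5% at R-UUO against UUO-7. In PDGFR-β+ libraries the stromal marker sum had medians of 376327 CPM in sham, 130823 at UUO-7 and 123282 at R-UUO. An equal sum in Macs can therefore stand for unequal shares of RNA from PDGFR-β+ cells. The part of such RNA in the Mac values at UUO-7 and at R-UUO was not tested.

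In ECs no member was called higher at any time. miR-199a-5p measured 31.9, 47.4, 55.2 and 42.4 CPM in sham and 21.0, 20.0, 34.1 and 29.9 at UUO-7, ranges that overlapped in 1 library of each group. Its log2 change was -0.66 ± 0.258 (adjusted p = 0.0915), and that of miR-199a-3p was -0.72 ± 0.266 (adjusted p = 0.0752). The latter was called lower in the fit over 63 libraries (-0.81, adjusted p = 0.0296) and with the compared groups alone (-0.68, adjusted p = 0.0204). Of 5 loci tested, only the miR-199b-3p locus was called lower at UUO-7 (-0.86 ± 0.273, adjusted p = 0.0430), where 5.33% of loci were called lower and 6.18% higher. It has the sequence of miR-199a-3p, so this call and the change of -0.72 are not separate measurements. That call was lost on leaving out any 1 of the 8 libraries of the 2 groups. The other EC contrasts called 0 of 5 loci in edgeR and in DESeq2, with 1 locus at an unadjusted p under 0.05 at R-UUO against UUO-7 and none in the remaining 3. The background there was 1.49% higher and 0.213% lower for UUO-2 against sham, 1.49% and 0.426% for UUO-7 against UUO-2, 0.853% and 0.213% for R-UUO against UUO-7, and 11.7% and 5.12% for R-UUO against sham. At R-UUO against sham the members' changes ranged from -0.56 to -0.03. Library size scaling changed the share of higher loci among the EC calls from 53.7% to 36.7% for UUO-7 and from 69.6% to 30.7% for R-UUO, both against sham. The mural marker sum in ECs was 10912 to 23938 CPM in sham and 7907 to 17063 at UUO-7, and its part in the EC levels was not tested.

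In PT cells 3 loci passed the filter, both 3p loci of miR-199 on chromosomes 1 and 2 and miR-199a-5p on chromosome 1. None of them was called in any of 5 contrasts by edgeR or DESeq2. At an unadjusted p under 0.05 there was 1 locus at UUO-7 against UUO-2 and 1 at R-UUO against sham. The background was 14.8% higher and 4.24% lower for UUO-2, 25.5% and 17.6% for UUO-7 and 25.8% and 13% for R-UUO against sham, 2.73% and 1.52% for UUO-7 against UUO-2, and 0.606% and 0.909% for R-UUO against UUO-7. miR-199a-5p rested on 4 to 14 counts in sham (11.7, 4.43, 10.8 and 9.37 CPM) and 36 to 66 counts at UUO-7 (17.9, 22.8, 14.8 and 15.9 CPM). Its change of 0.85 ± 0.507 did not pass (adjusted p = 0.175), although the groups did not overlap, which 50.9% of PT loci shared. In the fit over 63 libraries it was called, with 0.94 and adjusted p = 0.0486. The mural marker sum in PT cells was 1511 to 3368 CPM in sham and 6906 to 18037 at UUO-7, without overlap, and its part was not tested. At R-UUO 1 library held 46.4 CPM and the other 3 held 8.10 to 17.9, and the change from sham, 1.19 ± 0.516 (adjusted p = 0.0690), was 0.34 without that library (replicate 1). That change was called in the fit over 63 libraries (1.21, adjusted p = 0.0129), with no filter (1.28, adjusted p = 0.0410), with loci of one mature sequence summed (1.23, adjusted p = 0.0499) and without R-UUO replicate 2 (1.46, adjusted p = 0.0276) or 5 (1.39, adjusted p = 0.0439). The same library had a mural marker sum of 25671 CPM, against 3723 to 5703 in the other 3, and the part of stromal RNA in it was not tested. Among PT loci called, the share that was higher went from 59.2% to 43.6% with library size scaling at UUO-7 and from 66.4% to 44.0% at R-UUO, both against sham.

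The UUO-7 change itself was compared between sorts with an interaction term over all 63 libraries. Among the 8 member loci some share a mature sequence, and some did not pass the low count filter within the other sorts. Against ECs, 6 of 8 loci rose more in PDGFR-β+ cells at FDR under 0.05, where 22.5% of 671 loci did. The difference of changes was 3.19 ± 0.423 for miR-199a-5p (log2, SE, adjusted p = 7.33e-08), 2.95 ± 0.353 for miR-199a-3p, 2.69 ± 0.503 for miR-214-5p and 3.28 ± 0.456 for miR-214-3p. Against PT cells 4 of 8 passed (background 13.3%), with 1.71 ± 0.356 for miR-199a-3p (adjusted p = 0.000124), 1.93 ± 0.396 for miR-199b-3p, 1.50 ± 0.482 for miR-199a-5p (adjusted p = 0.0138) and 1.72 ± 0.639 for miR-214-3p (adjusted p = 0.0367). The last of these was lost without any 1 of sham mice 1, 2 and 4 or UUO-7 mice 2, 4 and 5, and with no filter (1.70, adjusted p = 0.0760), and miR-199a-5p without sham mouse 1 or 3 or UUO-7 mouse 2 or 4. miR-214-3p had not passed the low count filter within PT cells, where each sham library held 1 to 4 counts of it. Library size scaling moved the median difference of changes over all loci by 0.48 against ECs (91.5% of called loci higher instead of 80.7%), 0.18 against Macs and 0.91 against PT cells (77.0% instead of 48.1%).

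Against Macs the change was not shown to differ for most members. Only 1 of 8 loci passed (background 13%), miR-199b-5p with 3.03 ± 1.02 (adjusted p = 0.0262), which rested on 2 to 4 counts in each UUO-7 Mac library. It was lost without sham mouse 1 or 4 or any of UUO-7 mice 2, 3, 4 and 5. The differences for the other leading members were 0.95 ± 0.426 for miR-199a-5p (adjusted p = 0.112), 0.37 ± 0.351 for miR-199a-3p, 0.57 ± 0.593 for miR-214-5p and -0.57 ± 0.458 for miR-214-3p. With library size scaling miR-199a-5p passed as well, with 1.13 and adjusted p = 0.0320.

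Ratios of counts between members do not depend on library scaling. In PDGFR-β+ cells the arms of Mir214 had almost equal mean ratios in 3 of the 4 conditions. The log2 ratio of miR-214-3p over miR-214-5p averaged 1.04 ± 0.127 for sham, 1.04 ± 0.175 for UUO-2 and 1.03 ± 0.102 for R-UUO (SD, n = 4 each). At UUO-7 it was 1.51 ± 0.0191 (n = 3), with all 3 libraries, from 1.49 to 1.53, above the highest library of any other condition, 1.17. The ratio of miR-214-3p over miR-199a-5p, from separate hairpins, also had its highest mean at UUO-7. It averaged -2.34 ± 0.0530 for UUO-7, against -3.01 ± 0.155 for sham, -3.03 ± 0.212 for UUO-2 and -2.99 ± 0.341 for R-UUO. With 3 libraries against 4, the exact permutation test cannot go below p = 0.0571, which both ratios reached at UUO-7 against sham and at R-UUO against UUO-7 (two-sided, adjusted p = 0.114 over 16 tests). None of the 16 tests passed after adjustment, and the group sizes allowed none of them to pass. Even if every contrast of 4 against 4 libraries had reached its smallest exact permutation p, 0.0286, the adjusted p would have stayed above 0.05. These tests therefore cannot decide whether a ratio changed.

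The 3p arm of miR-199, summed over its 3 loci, was the abundant one, and its log2 ratio over the summed 5p arms was 3.00 ± 0.104 in sham, 2.67 ± 0.0328 for UUO-7 and 2.49 ± 0.397 for R-UUO. For R-UUO against sham no library overlapped, and the exact p of 0.0286, the smallest that 4 against 4 allows, became 0.114 after adjustment. The log2 ratio of miR-199b-5p over miR-199a-5p was lowest in sham, -5.96 ± 0.821, and reached -5.20 ± 0.211 for UUO-2, -4.68 ± 0.382 for UUO-7 and -4.77 ± 0.183 for R-UUO. The exact permutation p against sham was 0.114 for UUO-2, 0.0571 for UUO-7 and 0.0286 for R-UUO, with adjusted p of 0.183, 0.114 and 0.114.

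**Figure D4:**
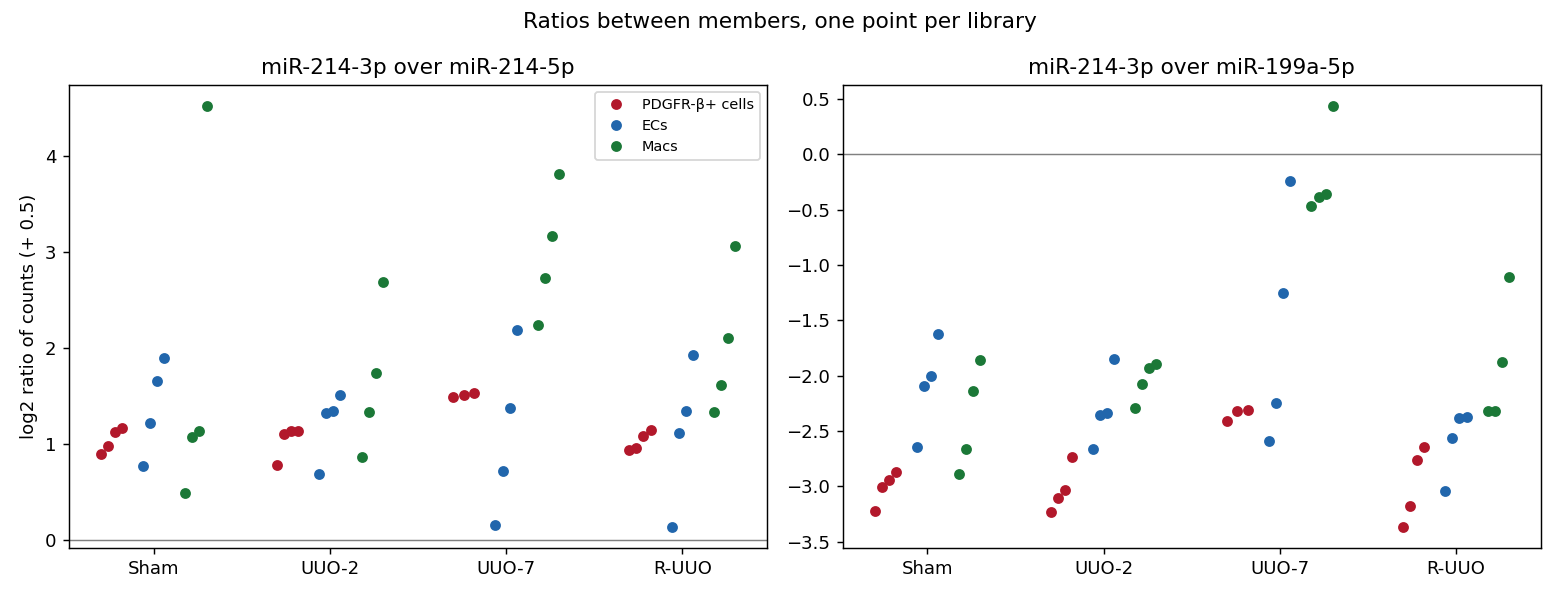
Log2 ratios of summed counts (each count + 0.5) in every PDGFR-β+, EC and Mac library, by condition. For miR-214-3p over miR-199a-5p, Macs at UUO-7 lie between -0.47 and 0.44, above all other Mac libraries, which lie at or below -1.11.

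Between cell types the ratios were compared within mice that had both sorts and at least 20 counts of the pair in each. miR-214-3p over miR-199a-5p was lower in PDGFR-β+ cells than in Macs in 15 of 15 mice, by a mean of 1.16 on the log2 scale (difference -1.16, SD 0.726). The exact sign-flip permutation test gave p = 6.1e-05, the smallest that 15 mice allow, and an adjusted p of 0.000671 over 11 tests. The gap was widest at UUO-7, where Macs had a mean log2 ratio of -0.19 and PDGFR-β+ cells -2.34. Elsewhere the Mac means were -2.39 for sham, -2.05 for UUO-2 and -1.91 for R-UUO, against -3.01, -3.03 and -2.99. The condition means are descriptions of values noticed in the data, without a test. The same ratio was lower in PDGFR-β+ cells than in ECs in 13 of 15 mice (difference -0.61, SD 0.557, exact permutation p = 0.00128, adjusted p = 0.00257). Against PT cells it differed by -0.69 (SD 1.09, 8 mice, exact permutation adjusted p = 0.172), and with no minimum count by -0.86, which passed (adjusted p = 0.0193).

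miR-214-3p over miR-214-5p was lower in PDGFR-β+ cells than in Macs in 11 of 12 mice (difference -0.93, SD 0.812, exact permutation adjusted p = 0.00257), and did not differ detectably from ECs (0.03, SD 0.634, 13 mice, adjusted p = 0.874). The miR-199 arms, 3p over 5p, were lower in PDGFR-β+ cells than in ECs (difference -0.57, SD 0.360), Macs (-0.47, SD 0.437) and PT cells (-0.63, SD 0.672) over 15 mice each, with exact permutation adjusted p of 0.000671, 0.00257 and 0.00355. miR-199b-5p over miR-199a-5p was higher in PDGFR-β+ cells than in ECs in 14 of 15 mice (2.44, SD 1.29, adjusted p = 0.000671), where EC libraries held 0 to 5 counts of miR-199b-5p. The lowest of 3 alternatives gave 1.66 against ECs, and all 3 kept the call, so the direction held but the size did not. Against Macs this ratio differed by -0.18 (SD 1.23, adjusted p = 0.650). Against PT cells it was higher in 6 of 6 mice by 0.86 (adjusted p = 0.0430), but PT libraries held at most 2 counts of it and with a pseudocount of 1 the difference was 0.10 (adjusted p = 0.771).

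The miR-199b-3p locus held 17.4% to 18.6% of all miR-199-3p counts in the 15 PDGFR-β+ libraries. It held 16.0% to 21.0% in ECs, 17.8% to 20.0% in Macs and 13.0% to 26.7% in PT cells, with medians of 17.9%, 18.7% and 18.6%. By contrast miR-199b-5p held 0.770% to 4.48% of miR-199-5p counts in PDGFR-β+ cells and a median of 0% in ECs. The chromosome 9 locus held at most 0.242% of the 3p counts and 0.355% of the miR-199a-5p counts in PDGFR-β+ cells, and up to 6.00% of the latter in Macs and 18.8% in PT cells. How reads of an identical sequence were placed among loci is not given in the sources used here. The chromosome 9 and miR-199b-3p values are therefore uncertain as measures of those genes.

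Over the 15 PDGFR-β+ libraries Pearson's r of log2 CPM of the other members with miR-199a-5p was 0.98 for miR-214-5p, 0.97 for miR-214-3p, 0.97 for miR-199b-5p and 0.95 for miR-199a-3p. These points share condition and scaling, and r is a description. Among non-members the loci most alike over those libraries were miR-181a-1-3p (0.979), both loci of miR-125b-5p (0.979), miR-148a-3p (0.969) and miR-125b-1-3p (0.968). Over all 63 libraries they were miR-34c-5p (0.919), miR-34b-5p (0.906), miR-7010-5p (0.887), miR-152-5p (0.881) and miR-125b-1-3p (0.873). Those libraries differ in cell type as well as condition, and what set this order was not tested.

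Other miRNAs of fibrosis were read beside the members in PDGFR-β+ cells. Of 8 miRNAs often described as profibrotic, 7 were called higher at UUO-7 against sham, with a median log2 change of 5.19. The background was 34% higher and 14.3% lower over all loci. miR-21a-5p went from 1760 ± 539 CPM to 56041 ± 3578 (4.97 ± 0.253), and miR-155-5p, an inflammatory miRNA, from 2.94 ± 2.59 to 143 ± 26.8 (5.63 ± 0.528). The passenger arm miR-21a-3p rose by 5.40 ± 0.454. miR-433-3p rose from at most 0.384 CPM to 17.9 to 26.0. miR-382-5p had no count in sham and 2.30 to 14.9 CPM at UUO-7. Loci this scarce in sham passed the low count filter through other conditions. The filter thus favoured their calls as higher against sham, and with them the count and median of this list. miR-34a-5p had a log2 change of -0.01. Of 15 loci of the miR-29, miR-30 and miR-200 families, often described as antifibrotic, 0 were higher and 4 lower, with a median of -0.52. The 4 were miR-29c-3p, which targets collagen messages (652 ± 70.4 to 94.5 ± 16.6 CPM, -2.85 ± 0.205), miR-30b-5p (-1.09), miR-30a-5p (-0.88) and miR-30d-5p (-0.72). With library size scaling 1 of the 15 was called lower and with DESeq2 8 were. Of 11 mural and stromal loci outside the family, 5 were called lower, among them miR-143-3p (-1.48 ± 0.235), miR-145a-5p (-1.28 ± 0.348) and miR-145a-3p (-1.94 ± 0.222), with a median of -0.17 over the list, and 1 higher, miR-34c-3p (2.87 ± 0.961, from at most 1.11 CPM to 3.37 to 5.75). The filter favoured the call of miR-34c-3p as well. With library size scaling 2 of the 11 were lower and 4 higher. At R-UUO the profibrotic list held 6 of 8 higher, the antifibrotic list 6 of 15 lower and the mural list 7 of 11 lower and 1 higher against sham, with median log2 changes of 4.71, -0.53 and -1.09, beside 27.9% of all loci higher, 13.8% lower and a median of 0.40.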

How the data were processed

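Small RNA was sequenced from 63 libraries of sorted kidney cells of 16 mice. The authors deposited raw read counts per mature miRNA locus, after trimming with Trim Galore 0.4.1 and cutadapt 1.1 and alignment with ShortStack (Bowtie) to GRCm38 with miRBase annotation; the placement of multi-mapping reads is not given in the sources used here. Counts were fitted with edgeR 4.0.16 (R 4.3.3; TMM, filterByExpr, quasi-likelihood test, Benjamini-Hochberg over all loci tested), per cell type for changes with injury and over 63 libraries and 16 groups for cell types and interactions. A call needed FDR under 0.05 and over 1.5-fold (interactions FDR only). CPM used TMM over 63 libraries. Ratios (summed counts + 0.5) were tested by exact permutation with scipy. DESeq2 1.42.0, library size scaling, no filter, summed loci, other sample sets, blocks and left-out libraries were alternatives. The printed fits between cell types and for interactions used no block for mouse, although labels give the same animal. Mouse was a block in an alternative fit, which changed no member count there. Same-mouse deviations had a median r of 0.0485 over 93 pairs, with 31 over 0.1. Pairs of different mice and cell types within a condition had a median of -0.0166, with 28 of 279 over 0.1. Libraries of the same animal thus deviated together somewhat more often. The fits were tested on simulated data, where 156 of 194 loci given a log2 change of 2 were recovered for PDGFR-β+ UUO-7 against sham. For the interaction against ECs 100 of 165 were recovered, so that test missed a larger share of such changes. Each simulated locus had the same base level in every group of its fit, whereas the members were scarcer in ECs. These shares therefore do not give how often such a change of a member would be found. For each mature sequence the locus with the highest mean CPM is the leading one and is named in full; the 5 loci most alike and up to 4 called loci per list with the largest non-overlapping change were named, plus miR-21a-5p, miR-34a-5p and the ratio by condition in Macs, chosen after their values were seen. Members and lists were chosen with earlier results of these data known. Replicates within groups differed beyond sampling noise (chi-square per degree of freedom 8.96 or more in 93 pairs).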

Additional observations from a re-analysis of the deposited data

Results flagged for a closer look

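In 58 groups of 4 libraries with at least 20 counts of a leading member in all, 3 libraries lay far from the other 3 of their group by Dixon's ratio, against about 1 in 20 groups by chance. All 3 were for miR-199a-3p. Sham Mac replicate 2 held 72.1 CPM, and the other 3 held 104 to 109. UUO-7 Mac replicate 2 held 272 CPM, and the other 3 held 352 to 359. Sham PDGFR-β+ replicate 3 held 4122 CPM, and the other 3 held 3391 to 3438.

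The change from sham to UUO-7 differed between PDGFR-β+ cells and another sort, by the interaction test in edgeR, for these leading members. Against ECs the difference was 3.19 for miR-199a-5p, 2.95 for miR-199a-3p, 2.69 for miR-214-5p and 3.28 for miR-214-3p on the log2 scale. Against Macs it was 3.03 for miR-199b-5p. Against PT cells it was 1.50 for miR-199a-5p, 1.71 for miR-199a-3p and 1.72 for miR-214-3p, the last with 1 to 4 counts in each sham PT library. Of 11 alternatives each, 6 did not keep the result of miR-199b-5p against Macs. Against PT cells 7 did not keep that of miR-214-3p and 4 that of miR-199a-5p.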

How the results depend on the processing

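In PDGFR-β+ cells the leading members kept their call and direction in all alternatives for UUO-7 against sham (70 of 70 values, log2 1.85 to 4.05), UUO-7 against UUO-2 (70 of 70, 1.35 to 2.72) and R-UUO against sham (75 of 75, 2.07 to 4.07). The p-values measure the spread between these selected mice. Where a value below changed, the cause was not tested unless fewer libraries or loci were used. With library size scaling, R-UUO against UUO-7 gave -0.069 for miR-199a-3p and -0.062 for miR-214-5p in PDGFR-β+ cells, with 12 loci called instead of 19, and -0.22 for miR-214-3p in Macs. The same scaling gave -0.12 for miR-214-5p in ECs at UUO-7, 4 member loci called in Macs at UUO-2 and 2 in the interaction against Macs. With no filter, 49 loci (instead of 30) were called in PDGFR-β+ cells at UUO-2 and 55 at R-UUO against UUO-7. The same setting gave 0.070 for miR-214-3p in ECs at UUO-7, 0.079 for miR-199a-5p in ECs at R-UUO against sham, -0.064 for miR-214-3p in Macs at R-UUO against UUO-7, 0.030 for miR-199a-3p in PT cells at R-UUO against sham, 0 member loci called in Macs at UUO-2 and 1 in PT cells at R-UUO against sham. With loci summed, miR-214-3p in ECs at UUO-7 was 0.085 and miR-199a-5p in ECs at R-UUO against sham 0.080. DESeq2 called 33 loci in PDGFR-β+ cells at R-UUO against UUO-7. With the compared groups alone, 7 were called there, miR-214-3p in Macs was -0.074 and 2 member loci were called in ECs at UUO-7. In the fit over all 63 libraries, 63 loci and 2 member loci were called in PDGFR-β+ cells at UUO-2, miR-214-5p in ECs at UUO-7 was -0.050, and the member loci called were 2 in ECs at UUO-7, 0 in Macs at UUO-2, 6 in Macs at R-UUO against UUO-7, 3 in PT cells at UUO-7 and 2 at R-UUO against sham.

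The replicate numbers do not pair mice across conditions (same-numbered libraries had a median r of -0.0175, with 8 of 74 pairs over 0.1). With the replicate block, miR-214-5p in ECs at UUO-7 was -0.12 with 0 member loci called, miR-199a-5p in ECs at R-UUO against sham 0.031, miR-214-3p in Macs at R-UUO against UUO-7 -0.13 and miR-199a-3p in PT cells at R-UUO against sham 0.10.

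For ratios, a pseudocount of 1 gave 0.0012 for miR-214-3p over miR-214-5p at UUO-2 against sham and 0.10 for miR-199b-5p over miR-199a-5p against PT cells. No minimum count gave -0.014 for miR-214-3p over miR-214-5p against ECs, and against PT cells -0.28 for miR-199b-5p over miR-199a-5p and -0.86 for miR-214-3p over miR-199a-5p.

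Leaving out 1 library gave 3 to 75 loci called in PDGFR-β+ cells at R-UUO against UUO-7 (3 without UUO-7 replicate 5, 75 without R-UUO replicate 1) and 19 to 42 at UUO-2. In ECs against sham it gave -0.067 to 0.18 for miR-199a-5p at R-UUO, -0.30 to 0.092 for miR-214-5p at R-UUO and -0.057 to 0.23 at UUO-7, and -0.49 to 0.29 for miR-214-3p at UUO-7, with 0 member loci called each time at UUO-7. In Macs it gave -0.057 to 0.14 for miR-214-3p at R-UUO against UUO-7, and 3 to 5 member loci there, 0 to 1 at UUO-2 and 3 to 5 at UUO-7 against UUO-2. In PT cells it gave 0 to 1 at R-UUO against sham. Leaving out 1 mouse gave an interaction of -0.60 to 2.80 for miR-199b-5p against ECs, with 0 to 1 member loci called against Macs and 2 to 4 against PT cells. The ratio of miR-214-3p over miR-214-5p then ranged from -0.058 to 0.034 at R-UUO and -0.049 to 0.087 at UUO-2 against sham, that of miR-214-3p over miR-199a-5p from -0.093 to 0.15 and -0.11 to 0.054, and that of miR-199b-5p over miR-199a-5p from -0.31 to 0.046 at R-UUO against UUO-7.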
